A study of Mus musculus with 15 samples.

Results

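The 10 immediate early genes described here are Fos, Fosb, Jun, Junb, Egr1, Atf3, Ier2, Ier3, Dusp1 and Zfp36. They were taken by gene symbol from the 54532 genes of the liver and lung RNA-seq tables, and each symbol matched 1 gene. The libraries came from male wild-type C57BL/6J mice, an inbred laboratory strain, labelled as 28 weeks old. The study's text gives that same length as the time of feeding, in mice that were already several weeks old at purchase, so the mice were older than the label says. Mice were fed either a control diet (CS group) or the same kind of diet with 2% phytosterols, the plant counterparts of cholesterol (PS group). The data held 9 livers (4 CS and 5 PS) and 6 lungs (3 CS and 3 PS), and the 6 lungs came from 6 of the 9 mice that gave a liver. Tissue was collected under sodium pentobarbital anesthesia, which all the mice shared, and each library is bulk RNA of a piece of 1 organ of 1 mouse.

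Immediate early genes are transcribed within minutes of a stimulus without waiting for new proteins, because the factors that switch them on, such as SRF with its ELK partners and CREB, already sit in the cell. Fos and Jun family proteins pair through leucine zippers to form AP-1, a transcription factor, while Egr1 and Atf3 encode transcription factors of the zinc finger and ATF/CREB families. Dusp1, a phosphatase that inactivates p38 and JNK kinases, and Zfp36 (tristetraprolin), which binds AU-rich elements and speeds the decay of short-lived mRNAs, act as brakes on the same response. Their transcripts decay fast, so a level in a tissue piece is a snapshot, and in liver and lung the group is known to rise with tissue injury.

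The promoters of the group are shown because these genes are read together below. RefSeq promoter entries on GRCm38.p6 were matched by symbol for 8 of the 10 genes, and Egr1 and Ier2 had no entry. In the 250 bases before the start site, both strands were searched for the cyclic AMP response element TGACGTCA, its short core TGACG, the AP-1 site TGANTCA, the TATA box TATAAA, the Egr site GCGNGGGCG and the serum response element (CArG box). Matches are in capitals in the stretches below, which end 1 base before the RefSeq start site in Fos, Jun and Junb.
Fos, chr12:85473740-85473889, plus strand: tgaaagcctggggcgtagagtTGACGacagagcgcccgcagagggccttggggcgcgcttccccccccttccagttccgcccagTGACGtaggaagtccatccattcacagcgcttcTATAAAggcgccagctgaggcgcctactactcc
Jun, chr4:95052223-95052372, minus strand: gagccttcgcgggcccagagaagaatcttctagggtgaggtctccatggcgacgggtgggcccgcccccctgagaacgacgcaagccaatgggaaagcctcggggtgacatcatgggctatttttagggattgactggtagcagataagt
Junb, chr8:84978749-84978898, minus strand: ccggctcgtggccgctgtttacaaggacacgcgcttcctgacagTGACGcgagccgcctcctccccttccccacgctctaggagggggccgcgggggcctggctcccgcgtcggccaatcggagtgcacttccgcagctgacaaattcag
Fosb, chr7:19310052-19310125, minus strand: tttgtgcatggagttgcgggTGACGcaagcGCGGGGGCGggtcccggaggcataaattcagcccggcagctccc
Dusp1, chr17:26508573-26508632, minus strand: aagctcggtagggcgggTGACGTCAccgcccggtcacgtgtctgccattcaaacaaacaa
Zfp36, chr7:28379267-28379296, minus strand: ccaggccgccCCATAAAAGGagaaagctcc

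The short core TGACG was found in 5 of the 8 promoters (Atf3, Dusp1, Fos, Fosb and Junb), against 17.8% of all 32851 promoter windows of the same length. The full element TGACGTCA, which holds the core on both strands, was found in Dusp1 at 143 to 136 bases before the start and in 1.55% of all windows. Fos held the core at 129 to 125 and at 66 to 62 bases before its start, and its TATA box at 33 to 28. The Egr site was found in Fosb and Zfp36 (4.7% of all windows), the TATA box in Fos alone (12.4%), and the serum response element in Zfp36 alone (1.47%). Sites more than 250 bases before the start, and those of Egr1 and Ier2, were not searched, so absence from a window is not absence from a promoter. No window held TGANTCA (6.75%), and the Jun window held none of the motifs searched. The RefSeq start of Zfp36 lies inside the annotated gene, so its printed stretch falls in an exon, and that of Atf3 is an internal start. A match of letters is a description and not a bound site.

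Library depth ranged from 14410117 to 17625179 counts in the livers and from 17934930 to 19396057 in the lungs. Markers fitted the labelled organs: the hepatocyte gene Alb ranged from 49943 to 85955 CPM in the livers and from 0.308 to 59.5 in the lungs, and Sftpc, the alveolar type II surfactant gene, from 12878 to 27052 CPM in the lungs and from 0 to 0.704 in the livers. Some lungs also carried fat and heart RNA, with summed fat cell markers from 12.5 to 115.9 CPM in CS and from 0.167 to 103.2 in PS, and summed cardiac markers from 135.1 to 199.5 CPM in CS and from 26.3 to 298.8 in PS. Summed alveolar type II markers did not overlap between the diets, with 18937 to 19763 CPM in CS and 21338 to 33741 in PS lungs, and all 5 had counts in every lung. Sftpc made up most of this sum, while Sftpb spanned only 2241 to 2359 CPM over all the lungs. Here and below, CPM is a count as a share of its library total (counts per 1e6), scaled by the trimmed mean of M-values (TMM) within each tissue. Jun, Junb, Zfp36 and Dusp1 share 232, 173, 125 and 11 exon bases with Junos, Prdx2, Gm44710 and Ergic1 on the other strand, and since strand use in counting is not stated, reads of these stretches cannot be told apart. In bulk tissue, fewer cells of a type and less RNA per cell cannot be told apart either.

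Levels were first ordered within each tissue on the deposited FPKM scale, which divides by gene length. In the 9 livers, Zfp36 had the highest level, 43.5 FPKM ± 23.4 (SD, n = 9), above Junb in 9 of 9 mice. Junb (26.8 ± 14.8), Ier2 (24.5 ± 9.30), Dusp1 (22.8 ± 11.6) and Jun (22.2 ± 16.5) followed on close levels, Junb lying above Ier2 in 5, Ier2 above Dusp1 in 6 and Dusp1 above Jun in 8 of 9 livers. Egr1 (3.31 ± 2.72), Fos (1.72 ± 1.51), Ier3 (0.868 ± 0.425), Atf3 (0.715 ± 0.498) and Fosb (0.0485 ± 0.0429) were far lower, and Egr1 lay above Fos and Atf3 above Fosb in 9 of 9 livers.

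In the 6 lungs the order differed. Dusp1 (145.7 FPKM ± 35.6, SD, n = 6), Ier3 (139.96 ± 22.6) and Jun (131.8 ± 22.5) led and were not separated from each other, Dusp1 lying above Ier3 in 3 of 6 lungs. Ier2 (67.1 ± 18.5), Junb (46.6 ± 16.4) and Zfp36 (45.6 ± 11.99) came next. Junb lay above Zfp36 in 3 of 6 lungs. Fos (24.7 ± 14.6), Egr1 (7.95 ± 6.46), Atf3 (5.62 ± 2.45) and Fosb (0.609 ± 0.357) were the 4 lowest, and Fos exceeded Egr1 in 6 of 6 lungs.

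**Figure D1:**
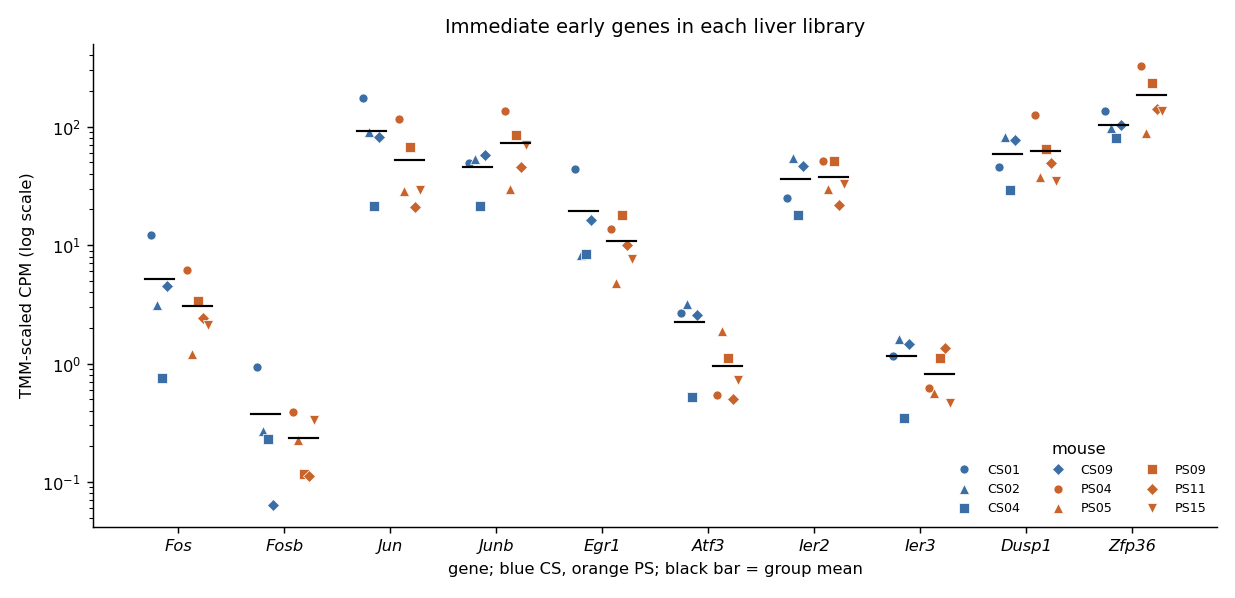
TMM-scaled CPM (log axis) of the 10 genes in each of the 9 livers, with 1 symbol per mouse, CS in blue, PS in orange and a black bar at the group mean. The diets overlap for every gene, and mouse CS01 stands highest for Fos, Fosb, Jun and Egr1.

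The liver comparison asked whether phytosterol feeding was accompanied by a change of these genes in the organ that handles dietary sterols. Zfp36 was higher and Atf3 lower in PS livers by the unadjusted test, and no member passed after adjustment over all genes. The values of the other members lay in both directions and did not pass either test. CS and PS livers overlapped for all 10 genes, and the share of all genes that overlapped is not given here. Of 9 members tested, 1 was higher and 1 lower at an unadjusted p of at most 0.05, where 3.96% and 3.58% of all 13195 genes were called in these directions. At an adjusted p under 0.05, 0 of 9 were called, against 0.00758% of all genes, by edgeR's quasi-likelihood test with Benjamini-Hochberg adjustment. DESeq2 also called 0 of 9 after adjustment, against 0.355% of all genes higher and 0.167% lower. The median log2 fold change of the 9 members was -0.47, beside -0.03 over all genes tested.

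Zfp36 (ENSMUSG00000044786, chr7:28376784-28380253, minus strand) stood at 135.5, 97.0, 80.2 and 102.7 CPM in CS livers 1 to 4. In PS livers 1 to 5 it stood at 326.0, 88.6, 234.2, 140.6 and 134.7 CPM. PS livers 1 and 3 were the highest of the 9, and PS liver 2 lay below 3 of the 4 controls. Its log2 fold change was 0.83 (SE 0.35, 95% interval 0.07 to 1.59, edgeR unadjusted p = 0.0347, adjusted p = 0.616), a 1.78-fold higher level. The call was lost without CS liver 2, 3 or 4 (edgeR unadjusted p = 0.0546, 0.0890 and 0.0683) and without PS liver 1 or 3 (unadjusted p = 0.103 and 0.0768), where the log2 fold change was 0.52 without PS liver 1 and 0.73 to 0.83 without the other 4.

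Atf3 (ENSMUSG00000026628, chr1:191170296-191218039, minus strand) was weakly expressed, at 2.65, 3.17, 0.522 and 2.56 CPM in CS livers 1 to 4. The PS livers stood at 0.541, 1.88, 1.11, 0.506 and 0.729 CPM, which rest on 7 to 33 counts. CS liver 3 lay with the PS livers, and PS liver 2 was the highest of its group. The log2 fold change was -1.205 (SE 0.55, 95% interval -2.40 to -0.01, edgeR unadjusted p = 0.0488, adjusted p = 0.66). The call was lost without CS liver 1, 2 or 4 (edgeR unadjusted p = 0.0986, 0.108 and 0.0999) and without PS liver 1, 3, 4 or 5 (unadjusted p = 0.0931, 0.0665, 0.099 and 0.0919), where the log2 fold change lay between -1.27 and -0.99, and with each library's trend with GC content removed the value was -1.18 with an unadjusted p of 0.0528. In the same livers the summed Kupffer cell markers ranged from 159.5 to 226.0 CPM in CS and from 51.0 to 178.8 in PS, and the summed endothelial markers from 41.9 to 57.4 in CS and from 20.3 to 53.6 in PS. All 5 Kupffer cell markers had counts in every liver. Their part in these differences was not tested.

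Among the Fos and Jun genes, Fos (ENSMUSG00000021250, chr12:85473890-85477273, plus strand) stood at 12.1, 3.10, 0.755 and 4.55 CPM in CS livers 1 to 4. The PS livers stood at 6.18, 1.19, 3.38, 2.42 and 2.12 CPM. Both the highest and the lowest liver were controls, a 16.1-fold range, so the diets overlapped in full. The log2 fold change was -0.76 (SE 0.65, edgeR unadjusted p = 0.267, adjusted p = 0.864), and it was 0.12 without CS liver 1. That mouse, CS01, decided the sign.

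Jun (ENSMUSG00000052684, chr4:95049034-95052222, minus strand), the main partner of Fos, stood at 173.0, 90.8, 21.2 and 81.9 CPM in CS livers. In PS livers it stood at 115.5, 28.4, 67.5, 20.9 and 29.0 CPM. The values spread over 8.28-fold, with CS liver 3 and PS livers 2, 4 and 5 forming the low end. In log2 terms the change was -0.81 (SE 0.59, edgeR unadjusted p = 0.193, adjusted p = 0.824), and it ranged from -0.31 without CS liver 1 (unadjusted p = 0.616) to -1.33 without PS liver 1 (unadjusted p = 0.0365).

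Junb (ENSMUSG00000052837, chr8:84974484-84978718, minus strand), which pairs with Fos but activates many AP-1 sites less than Jun does, went the other way, from 49.0, 53.7, 21.6 and 57.8 CPM in CS livers. The PS livers stood at 135.4, 29.7, 85.9, 45.3 and 69.8 CPM. PS livers 1, 3 and 5 lay above all controls and PS liver 2 below 3 of them. The change came to 0.69 on the log2 scale (SE 0.42, 95% interval -0.23 to 1.60, edgeR unadjusted p = 0.127, adjusted p = 0.763), and it ranged from 0.34 without PS liver 1 (unadjusted p = 0.381) to 0.88 without PS liver 2 (unadjusted p = 0.0414). Fosb (ENSMUSG00000003545, chr7:19302696-19310051, minus strand), a close relative of Fos, had 1 to 17 counts per liver and did not pass the filter on low counts. Its highest liver, 0.938 CPM, was again that of mouse CS01, and the other 8 lay between 0.064 and 0.386 CPM.

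Egr1 (ENSMUSG00000038418) stood at 44.3, 8.22, 8.47 and 16.3 CPM in CS livers 1 to 4. In PS livers it stood at 13.7, 4.83, 18.1, 10.001 and 7.69 CPM. CS liver 1 stood apart from the other 8, which overlapped. The log2 fold change was -0.83 (SE 0.52, edgeR unadjusted p = 0.133, adjusted p = 0.765), -0.02 without CS liver 1 and -1.09 without CS liver 2 (unadjusted p = 0.0494).

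The remaining members passed neither test in the liver. Dusp1 (ENSMUSG00000024190, chr17:26505590-26508519, minus strand) ranged from 29.2 to 82.4 CPM in CS and from 34.5 to 126.2 in PS livers, with a log2 fold change of 0.09 (SE 0.41, 95% interval -0.82 to 1.00). Ier2 (ENSMUSG00000053560, chr8:84661331-84662852, minus strand), which encodes a small nuclear protein, ranged from 17.99 to 54.1 CPM in CS and from 21.7 to 51.7 in PS (0.06, SE 0.35, 95% interval -0.71 to 0.83). The signs of Dusp1 and Ier2 turned in several of the fits that left out 1 liver. Ier3 (ENSMUSG00000003541, chr17:35821684-35822923, plus strand), a stress-induced regulator of cell survival, had 6 to 24 counts per liver and ranged from 0.348 to 1.62 CPM in CS and from 0.464 to 1.35 in PS (-0.47, SE 0.51, 95% interval -1.59 to 0.66).

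**Figure D2:**
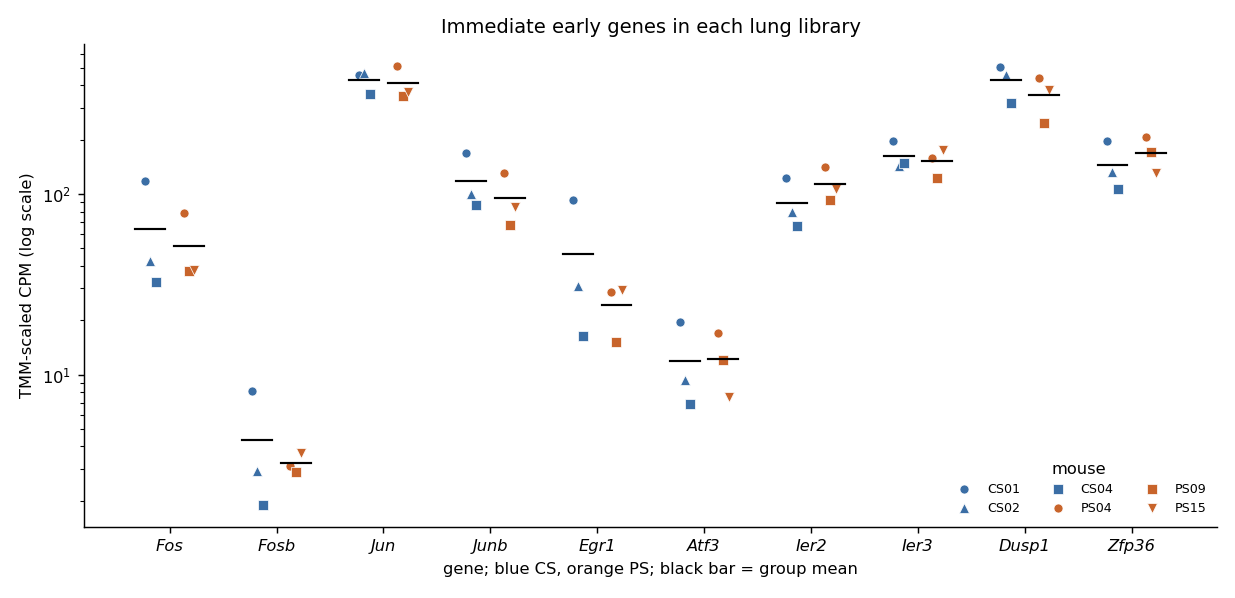
TMM-scaled CPM (log axis) of the 10 genes in each of the 6 lungs, with 1 symbol per mouse, CS in blue, PS in orange and a black bar at the group mean. The diets overlap for every gene, and mouse CS01 is the highest lung for 7 of the 10.

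The lung comparison put the same question to the other organ. None of the 10 members was called, although many other genes of the lung were. By edgeR, 0 of 10 members passed an unadjusted p of at most 0.05, against 30.1% of the 16717 genes tested, and 0 of 10 passed an adjusted p under 0.05, against 9.22%. At an adjusted p, DESeq2 and limma on FPKM also called 0 of 10. Of all genes, DESeq2 called 5.24% higher and 5.01% lower. Limma called 2.96% and 3.53% on log2(FPKM + 1), and 3.16% and 3.33% on log2(FPKM + 0.1). The median log2 fold change of the members was -0.18, beside 0.01 over all genes, with 3 members higher and 7 lower. CS and PS lungs overlapped for all 10, again without a share over all genes to set beside it.

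Fos stood at 118.1, 42.7 and 32.4 CPM in CS lungs 1 to 3 and at 78.4, 37.6 and 37.7 CPM in PS lungs 1 to 3. CS lung 1 was the highest and CS lung 3 the lowest, so the PS values lay between them. The log2 fold change was -0.33 (SE 0.52, edgeR adjusted p = 0.707), and 0.42 without CS lung 1. Fosb was also highest in CS lung 1, with 8.14, 2.93 and 1.90 CPM in CS and 3.14, 2.90 and 3.70 CPM in PS lungs (-0.41, SE 0.50, and 0.40 without CS lung 1).

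Egr1 showed the widest spread of the lung, with 92.5, 30.8 and 16.3 CPM in CS and 28.6, 15.2 and 29.4 CPM in PS. Its log2 fold change of -0.93 (SE 0.63, 95% interval -2.44 to 0.58, edgeR unadjusted p = 0.186, adjusted p = 0.362) was the furthest from 0 of the 10. It was 0.02 without CS lung 1 and -1.30 without CS lung 3 (unadjusted p = 0.0219). Atf3 stood at 19.5, 9.35 and 6.84 CPM in CS and at 17.0, 12.001 and 7.56 CPM in PS lungs. Those values interleave, and the log2 fold change was 0.03 (SE 0.41, 95% interval -0.90 to 0.97).

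Jun and Ier3 were the steadiest members in the lung. Jun stood at 455.3, 469.4 and 356.6 CPM in CS and at 512.7, 350.1 and 366.8 CPM in PS lungs (log2 fold change -0.06, SE 0.20, 95% interval -0.51 to 0.40). Ier3 ranged from 143.2 to 196.4 CPM in CS and from 123.2 to 175.9 in PS (-0.09, SE 0.19, 95% interval -0.51 to 0.34).

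Junb, Dusp1 and Zfp36 overlapped between the diets as well. Junb stood at 168.7, 100.6 and 86.5 CPM in CS and at 131.4, 67.8 and 84.6 CPM in PS lungs (-0.33, SE 0.30). Dusp1 ranged from 321.5 to 505.4 CPM in CS and from 248.0 to 439.5 in PS (-0.27, SE 0.25). Zfp36 ranged from 107.2 to 197.2 CPM in CS and from 130.3 to 206.6 in PS (0.22, SE 0.25). Ier2 stood at 122.5, 79.4 and 67.0 CPM in CS and at 141.1, 92.9 and 107.0 CPM in PS lungs (0.34, SE 0.24, edgeR unadjusted p = 0.194), and its log2 fold change was 0.61 without CS lung 1 (unadjusted p = 0.0226, adjusted p = 0.16) but 0.15 without PS lung 1 (unadjusted p = 0.565) and 0.10 with the GC trend removed (unadjusted p = 0.728).

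**Figure D3:**
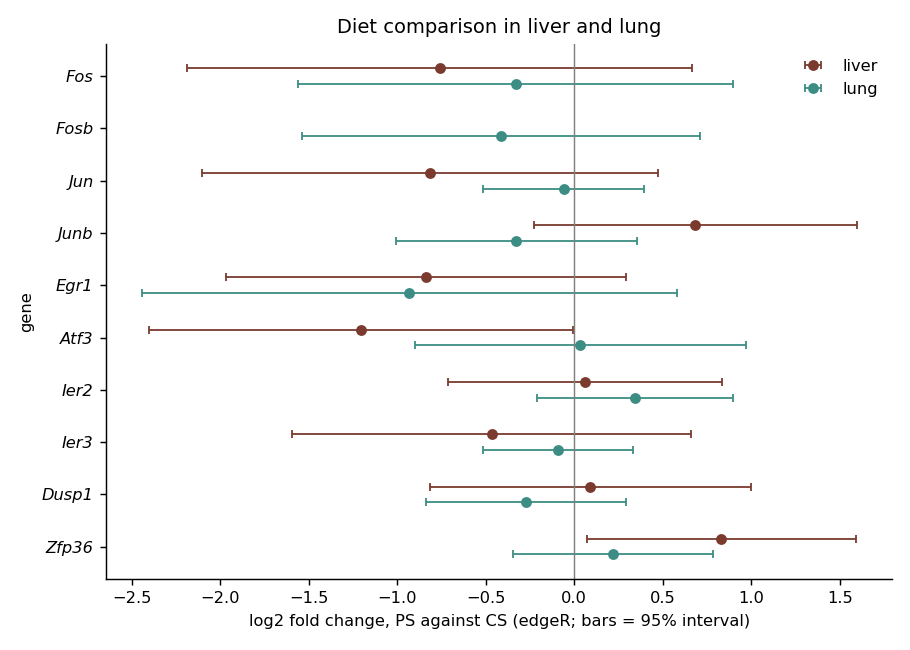
Log2 fold change of PS against CS (horizontal axis) for each gene in liver and lung, with bars for the 95% interval of the edgeR fit. In the liver the intervals of Zfp36 and Atf3 leave out 0, and in the lung every interval holds 0; Fosb was not tested in the liver.

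Whether the diet effect differed between the organs was tested as an interaction over all 15 libraries. No member passed, with 0 of 10 at an unadjusted p of at most 0.05 (10.9% of 17696 genes) and 0 of 10 at an adjusted p under 0.05 (0.0226%). The most distant were Atf3, with a lung minus liver value of 1.196 (SE 0.77, edgeR unadjusted p = 0.137), and Junb, with -1.04 (SE 0.60, unadjusted p = 0.101). With the mouse as a block, over the 12 libraries of the 6 mice with both organs, Junb was -1.55 (SE 0.36, unadjusted p = 0.00151, adjusted p = 0.777) and Zfp36 was -0.81 (SE 0.33, unadjusted p = 0.0324, adjusted p = 0.872), so 2 of 10 passed the unadjusted test, against 5.56% of all genes in this fit. At an adjusted p 0 of the 10, and 0 of all 17605 genes, were called by edgeR in this fit. In all 15 libraries Atf3 passed the unadjusted test without CS liver 3, PS liver 2 or CS lung 1 (1.52, 1.60 and 1.74), and Junb without PS liver 2 or PS lung 1 (-1.24 and -1.39). Over the fits that left out 1 library these values ranged from 0.86 to 1.74 for Atf3 and from -1.39 to -0.71 for Junb. With mouse CS01 left out of both organs, no call was added.

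The highest and lowest values fell on a few mice. In the livers, mouse CS01 was the highest of 9 for Fos, Fosb, Jun and Egr1, and mouse CS04 the lowest for 6 of the 10 (Fos, Junb, Ier2, Ier3, Dusp1 and Zfp36). In the lungs, CS01 was the highest of 6 for 7 genes, PS04 for the other 3 (Jun, Ier2 and Zfp36), and CS04 and PS09 were the lowest for 5 each. PS09, whose lung was lowest for Jun, Junb, Egr1, Ier3 and Dusp1, was the lowest liver for 0 members. PS04 was also the highest liver for Junb, Dusp1 and Zfp36. In the livers, the mice that were most often the highest and the lowest were thus both controls. The lung of CS01 also had the highest summed hepatocyte and Kupffer cell markers, 128.0 and 11.4 CPM, where the other lungs reached 37.8 and 8.05 at most. Their part in its values was not tested.

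Spread within a diet, on the log2 CPM scale, was wide for most members. In the liver the within-diet SD of Fos was 1.21 and that of Jun 1.14, beside a median of 0.43 over all genes tested, at the 97.1st and 95.9th percentiles. In the lung Egr1 (0.97) and Fos (0.82) stood at the 97.1st and 95.02th percentiles, beside a median of 0.27, whereas Jun (0.26) and Ier3 (0.26) stood at the 47.8th and 46.8th. Jun was thus among the most variable members in the liver and close to the median gene in the lung.

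**Figure D4:**
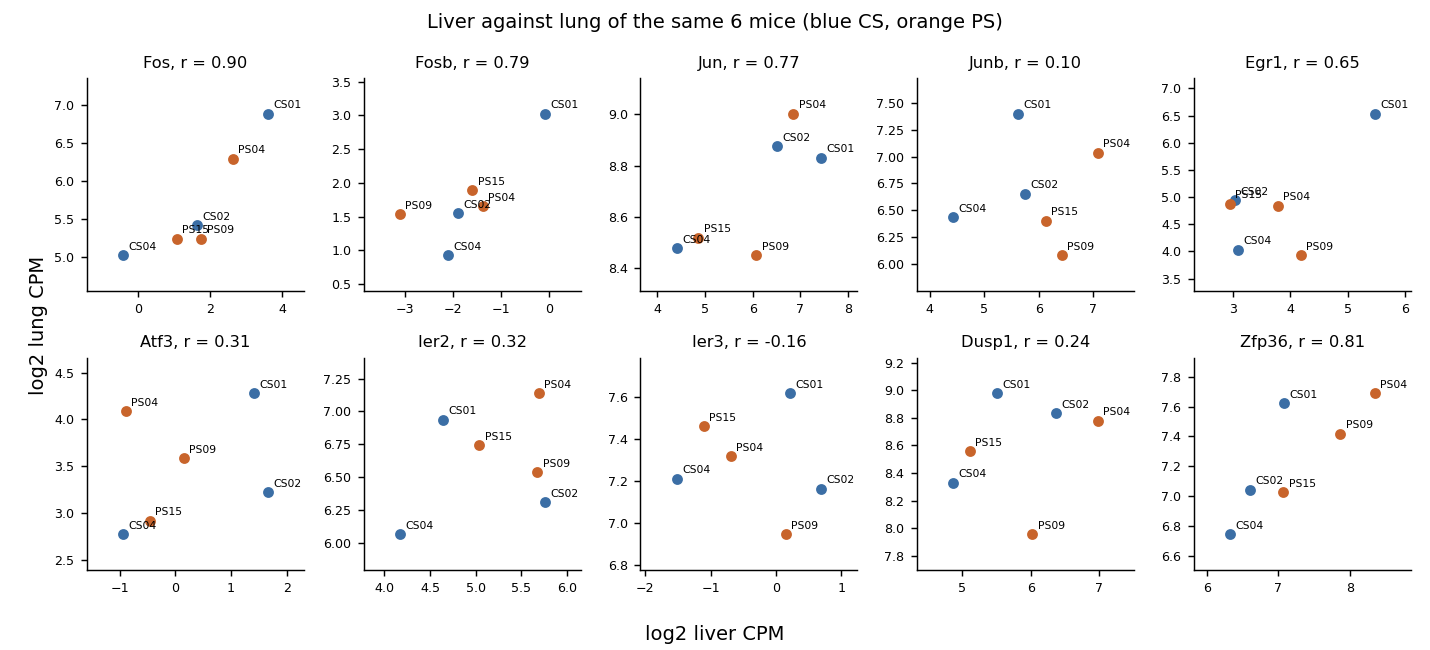
Log2 CPM in liver (horizontal) against lung (vertical) of the same 6 mice, 1 panel per gene with its Pearson r, CS in blue and PS in orange. Fos rises along the diagonal from CS04 to CS01, while Junb and Ier3 scatter.

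The relation of each gene between the organs of 1 mouse was measured over the 6 mice with both. Fos had the highest Pearson r, 0.90 (exact permutation p = 0.0111, adjusted over the 10 genes p = 0.111), with a Spearman rho of 0.83 (exact permutation p = 0.0583, adjusted p = 0.194). Without mice CS01 and CS04, the farthest from the median liver value, its r was 0.90 over 4 mice. When liver and lung libraries were scaled together instead of within each organ, r was 0.91. Its exact permutation p was 0.00278 and its adjusted p 0.0278, so the scaling decides whether this relation passes.

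Zfp36 (r = 0.81, exact permutation p = 0.0569, adjusted p = 0.243), Fosb (r = 0.79, exact permutation p = 0.0736) and Jun (r = 0.77, exact permutation p = 0.0972) had the next highest r and did not pass. Zfp36 and Fosb had the highest rho, 0.89 each (exact permutation p = 0.0333, adjusted p = 0.167). Egr1 had an r of 0.65 but a rho of -0.03, and its r was 0.15 without mice CS01 and PS09, so that it rested on those mice. Atf3, Ier2, Dusp1 and Junb had r between 0.10 and 0.32, and Ier3 had -0.16. Within a diet there are 3 mice, too few for a value. In order, CS01, CS02 and CS04 ranked the same for Fos in both organs, and PS04 was the highest PS mouse in both.

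The lung was next compared with the liver within the same 6 mice. Ier3, Fos, Fosb, Atf3, Dusp1 and Jun were higher in the lung, and Zfp36 was lower. By edgeR with the mouse as a block, 6 of 10 members were higher in lung at an adjusted p under 0.05, against 40.4% of the 15989 genes tested, and 1 was lower, against 30.2%. The members' median log2 fold change was 1.40, beside 0.23 over all genes. This comparison depends on how libraries are scaled. TMM composition factors gave these values, and with library totals alone the median of all genes moved to 1.55 and the adjusted calls over all genes from 6466 higher and 4834 lower to 11473 and 2063.

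Ier3 showed the largest step, a log2 fold change of 6.22 (SE 0.32, edgeR adjusted p = 3.13e-08), with lung over liver ratios from 36.8 to 167.2 in the 6 mice. Fos followed with 2.58 (SE 0.26, adjusted p = 5.09e-06), and every mouse had at least 3.72 times as much in lung. Fosb (2.07, SE 0.44), Atf3 (1.93, SE 0.42), Dusp1 (1.46, SE 0.26) and Jun (1.35, SE 0.33) were higher in 6 of 6 lungs too. The ratio of Jun ranged from 1.01 in one mouse to 6.61 in another.

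Zfp36 was lower in 6 of 6 lungs, with a log2 fold change of -1.27 (SE 0.20, edgeR adjusted p = 0.000186), 2.41-fold, and liver over lung ratios from 1.77 to 3.70. With library totals alone it was 0.05 (adjusted p = 0.824), so its direction rests on the composition factor. Relative to the median of all genes it lay at -1.50 under either scaling, the lowest of the 10. Junb (-0.55, SE 0.30, adjusted p = 0.124), Egr1 (-0.20, SE 0.27) and Ier2 (0.15, SE 0.22) did not pass. With library totals alone they were 0.77, 1.12 and 1.47, all past the adjusted test. In that fit 71.8% of all genes passed as higher, and the median of all genes was 1.55. In PS mice alone Junb was lower in lung, by a log2 fold change of -1.32 (adjusted p = 0.000397), and in CS mice alone it was 0.18 (unadjusted p = 0.56). Without mouse CS04, Junb was -0.80 (adjusted p = 0.0351). In CS mice alone Fosb, Jun and Atf3 did not pass the adjusted test (1.79, 1.21 and 1.28).

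**Figure D5:**
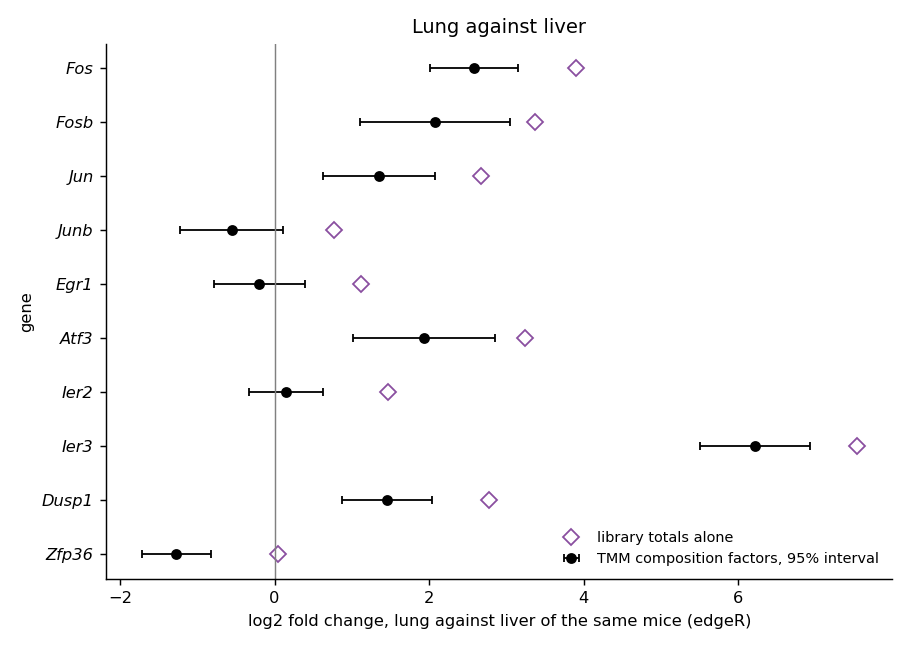
Log2 fold change of lung against liver in the same 6 mice (horizontal axis) for each gene. Black points with 95% intervals use TMM composition factors and open diamonds use library totals alone; with the diamonds Junb, Egr1 and Zfp36 move to the other side of 0.

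Around the 10 members, 95 further genes of the same response were read in 7 lists. In the liver 86 of them were tested, of which 7 were higher and 8 lower at an unadjusted p, where 3.96% and 3.58% of all genes were called, and 0 at an adjusted p by edgeR (1 of all 13195 genes). Their median log2 fold change was -0.05, beside -0.03 over all genes. In the lung 95 were tested, with 18 higher and 15 lower at an unadjusted p, where 15.6% and 14.5% of all genes were called, and 8 higher and 5 lower at an adjusted p, against 4.8% and 4.43%. The median log2 fold change of these 95 genes was 0.05, beside 0.01 over all genes. In these lungs the summed alveolar type II markers, mostly Sftpc, also stood apart by diet (18937 to 19763 CPM in CS and 21338 to 33741 in PS). Their part in the lung differences was not tested.

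Among AP-1 partners in the liver, 1 of 7 tested was higher and 1 lower at an unadjusted p, against 3.96% and 3.58% of all genes. Maff, a small Maf protein without an activation domain, ranged from 2.29 to 2.88 CPM in CS and from 3.30 to 8.62 in PS livers, without overlap (log2 fold change 1.33, SE 0.31, edgeR unadjusted p = 0.00124, adjusted p = 0.227). Fosl2, a Fos relative, was lower (-0.58, SE 0.24, unadjusted p = 0.0337, adjusted p = 0.611), and it passed in 5 of the 9 fits that left out 1 liver. In the lung 0 of 10 partners were called by edgeR at either p, against 30.1% of all genes unadjusted and 9.22% adjusted.

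Of the other immediate early transcription factors, 2 of 15 tested were higher and 1 lower in the liver at an unadjusted p, against 3.96% and 3.58% of all genes. Bhlhe40, a repressor that also feeds into the circadian clock, ranged from 15.8 to 26.3 CPM in CS and from 46.2 to 103 in PS livers (1.84, SE 0.28, edgeR unadjusted p = 3.4e-05, adjusted p = 0.0974). Nr4a1, an orphan nuclear receptor, ranged from 5.22 to 17.7 CPM in CS and from 0.729 to 3.15 in PS livers (-2.43, SE 0.46, unadjusted p = 0.000251, adjusted p = 0.114). Neither overlapped between the diets, and both kept an unadjusted p under 0.05 in all 9 fits that left out 1 liver. Klf10, a TGF-beta-inducible factor, was higher as well (0.81, SE 0.24, unadjusted p = 0.00541, adjusted p = 0.355).

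In the lung 6 of the 18 transcription factors were higher and 4 lower at an unadjusted p, against 15.6% and 14.5% of all genes. Ier5l, a relative of Ier2, was the only one of the list past the adjusted test (4.8% of all genes were higher and 4.43% lower). It ranged from 10.1 to 10.8 CPM in CS and from 14.2 to 20.9 in PS lungs (0.78, SE 0.20, edgeR adjusted p = 0.0445). Bhlhe40's diet effect differed between the organs before adjustment (lung minus liver -2.08, SE 0.41, edgeR unadjusted p = 0.000109, adjusted p = 0.141). That fit of all 15 libraries leaves the mouse out of the model.

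Of the other immediate early effectors, 2 of 20 tested were higher and 5 lower in the liver at an unadjusted p, against 3.96% and 3.58% of all genes. In the lung 5 of 21 were higher and 1 lower at an unadjusted p (15.6% and 14.5% of all genes), and 4 higher and 0 lower at an adjusted p (4.8% and 4.43%). The growth arrest gene Gadd45b ranged from 2.90 to 22.1 CPM in CS and from 2.58 to 6.41 in PS livers (-1.62, SE 0.49, edgeR unadjusted p = 0.00639, adjusted p = 0.385). In the lung it ranged from 126.1 to 138.5 CPM in CS and from 187.3 to 228.1 in PS (0.68, SE 0.14, adjusted p = 0.0317). The difference between the organs, again without the mouse in the model, was 2.25 (SE 0.61, unadjusted p = 0.00202, adjusted p = 0.258). Plk2, a polo-like kinase, was lower in PS livers without overlap (-1.06, SE 0.25, unadjusted p = 0.00139), as were, with overlap, Ppp1r15a, which directs the dephosphorylation of eIF2-alpha, and the matrix protein gene Cyr61 (-0.78 and -0.85, unadjusted p = 0.00963 and 0.0119).

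Gadd45g (1.07, SE 0.17, adjusted p = 0.0198), the kinase gene Plk3 (0.91, SE 0.17, adjusted p = 0.0255) and the clock gene Per1 (0.92, SE 0.23, adjusted p = 0.0417) were the other effectors that passed the adjusted test as higher in PS lungs by edgeR. All 3 separated the diets without overlap. They were picked by smallest p, and the share of all genes without overlap is not given here. The adjusted calls of the lung depended on single libraries. Over all genes 802 higher and 740 lower calls became 1 and 22 without CS lung 1, 1 and 25 without CS lung 2, 0 and 0 without CS lung 3, and 2 and 7 without PS lung 2, but 1752 and 1197 without PS lung 1 and 947 and 1309 without PS lung 3. Of the 6 fits that left out 1 lung, Gadd45b, Gadd45g and Plk3 kept an adjusted p under 0.05 in 2 and Per1 in 1, and all 4 kept an unadjusted p under 0.05 in all 6.

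Upstream of these genes lie the MAP kinases and the factors they act on. Of 20 kinases and factors upstream, in the lung 2 were higher and 7 lower at an unadjusted p (15.6% and 14.5% of all genes), and 1 higher and 4 lower at an adjusted p (4.8% and 4.43%). The kinase gene Rps6ka3 fell (-0.60, SE 0.13, edgeR adjusted p = 0.0324). It ranged from 99.2 to 108 CPM in CS and from 64.6 to 71.9 in PS lungs. Elk4, a partner of SRF, rose (0.78, SE 0.17, adjusted p = 0.0355). In the liver 0 of 20 were higher and 1 was lower at an unadjusted p, against 3.96% and 3.58% of all genes, Rps6ka3 with a log2 fold change of -0.40 (edgeR unadjusted p = 0.04995, adjusted p = 0.66), which kept an unadjusted p under 0.05 in 1 of the 9 fits that left out 1 liver.

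Among MAP kinase phosphatases and Sprouty inhibitors, which act beside Dusp1 as brakes, 0 of 12 were higher and 2 lower in the lung at an unadjusted p, against 15.6% and 14.5% of all genes. Dusp4, a nuclear phosphatase, ranged from 8.74 to 9.70 CPM in CS and from 0.769 to 4.03 in PS lungs (-2.23, SE 0.55, edgeR adjusted p = 0.0417), and Dusp16, a JNK phosphatase, was lower before adjustment (-0.66, SE 0.18, adjusted p = 0.0521). In the liver the Ras-pathway inhibitors Spred1 (0.51, SE 0.21) and Spry4 (1.09, SE 0.48) were higher at an unadjusted p, 2 of 10 tested against 3.96% of all genes, and kept it in 3 and 4 of the 9 fits that left out 1 liver.

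Of the 6 other proteins that bind AU-rich elements, 0 were called in the liver by edgeR at an unadjusted p, against 3.96% and 3.58% of all genes. In the lung 2 were higher and 1 lower at an unadjusted p, against 15.6% and 14.5% of all genes. Tia1, a translational silencer, passed the adjusted test as higher in PS lungs (0.88, SE 0.22, adjusted p = 0.0412), as did 4.8% of all genes. Zfp36l2, the Zfp36 relative, was lower before adjustment (-0.68, SE 0.20, adjusted p = 0.0597). Of 8 heat shock genes, which also answer tissue stress, 0 were called in the liver at an unadjusted p, against 3.96% and 3.58% of all genes. Hspa1a had 0.77 (SE 0.59) there. In the lung 3 were higher at an unadjusted p, against 15.6% of all genes, and Hspb1 at an adjusted one (1.13, SE 0.20, adjusted p = 0.0218), against 4.8%.

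Between the organs, 54 of the 95 further genes were higher in lung and 17 lower at an adjusted p by edgeR, against 40.4% and 30.2% of all genes, with a median log2 fold change of 1.15, beside 0.23 over all genes. The transcription factors Klf4 (6.89, SE 0.34) and Klf6 (4.11, SE 0.21) were among those with the smallest p. Errfi1, an inhibitor of the EGF receptor (-3.40, SE 0.26), and Trib1 (-1.63, SE 0.16) were lower in lung.

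The genes whose pattern was most like that of the members were found by Pearson r with the mean z-score of the tested members' log2 CPM. Over the 9 livers, among the 10143 genes averaging 1 or more on the log2 CPM scale, the closest were Gdf15 (r = 0.94), a stress-induced cytokine, then Cyren (0.93), Cyth2 (0.91), Crygn (0.90), Mepce (0.89), Mak16 (0.88), Sgf29 (0.88) and Tk2 (0.88). Over the 6 lungs, among 13025 genes, they were Ppp1r2 (0.99), Ube2d2a (0.97), Tlnrd1 (0.96), Mkks (0.96), Mapkapk2 (0.96), Atp6ap1 (0.96), Tgtp1 (0.95) and Rsph3a (0.95). The 2 lists share no gene. All 16 values are descriptions chosen as the highest of many, and the points share their libraries' depth and composition.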

How the data were processed

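Poly(A)-selected liver and lung RNA was sequenced by the authors, aligned to mm10 with HISAT2 2.0.5 and counted per gene with featureCounts 1.5.0-p3, as the submitters' processing notes name them. The authors deposited raw read counts per gene and FPKM values per gene for each tissue, and both were used as deposited. The diet comparisons, their difference and the lung against liver comparison were fitted to the counts of all genes with edgeR 4.0.16 in R 4.3.3 (robust quasi-likelihood test, TMM factors, default filter on low counts, Benjamini-Hochberg adjustment over all genes tested). Liver and lung were fitted apart for diet. The lung against liver fit used the mouse as a block, since 6 mice gave both organs. Replicates were separate mice, and no pair of libraries of a group agreed within sampling noise. Correlations across mice used exact permutation tests. The script was tested on simulated data. Alternatives were DESeq2 1.42.0, limma 3.58.1 on log2(FPKM + 1) and log2(FPKM + 0.1), other filters and scalings, GC and length trends, replicate blocks, and each library left out.

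Promoter sequences came from RefSeq on GRCm38.p6, and overlaps from GENCODE M21. The members and lists were chosen with earlier results of these data known. All 10 members are named, from each further list at most 4 genes per comparison by smallest p (some single-gene results are not reported here), and the 8 genes per tissue most like the members. The genes of the further lists described as without overlap were among those picked by smallest p. Genome positions are those of the deposited files. Strand use in counting, sampling time and feeding state at collection are not given in the sources used here. P-values measure the spread between these mice, and counting noise limits genes under about 20 counts.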

Additional observations from a re-analysis of the deposited data

How the results depend on the processing

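The count of members higher in PS livers was 0 with limma on log2(FPKM + 1), limma on log2(FPKM + 0.1) and the replicate block. In these fits 7.97%, 7.8% and 3.69% of all genes passed the unadjusted test in either direction. With 1 library left out the count higher was 0 to 2, against 5.2% to 14.1% of all genes in either direction. The count lower was 0 with at least 10 counts in every library (8.11% of all genes in either direction), a filter that removes Atf3 (7 to 9 counts in 3 livers) before any test. It was also 0 with limma on log2(FPKM + 0.1), the replicate block and removal of the GC trend (7.44%), and 0 to 1 with 1 library left out. With the replicate block, Zfp36 had an unadjusted p of 0.0566 and Atf3 of 0.154 by edgeR. The labels give CS and PS mice the same replicate numbers but nothing ties these mice, and deviations of same-numbered libraries correlated by -0.36 to -0.03 in the liver and by -0.01 to 0.10 in the lung. In the lung the count was 0 to 1 of 10 with 1 library left out (21.5% to 35.5% of all genes). The members whose diet effect differed between organs numbered 2 of 10 with the mouse block (5.56% of all genes) and 0 to 2 with 1 library left out (6.94% to 14.9%). The mouse block fit also used only the 12 libraries of mice with both organs, so the 2 changes are not told apart. In the tissue comparison 3 of 10 were higher in CS mice alone (29.8% of all genes), 2 lower in PS mice alone (26.6%), and 1 to 2 lower with 1 mouse left out (27.6% to 32%). With library totals alone 0 were lower (12.9% of all genes), and Junb turned to 0.77, Egr1 to 1.12 and Zfp36 to 0.049. The median of all genes moved from 0.23 to 1.55 under the same change. Joint scaling brought the Fos relation (r = 0.91) past the threshold. Log2 fold changes that turned sign with 1 liver left out were those of Fos (-1.17 to 0.12), Ier2 (-0.16 to 0.32) and Dusp1 (-0.34 to 0.30). With 1 lung left out they were those of Fos (-0.78 to 0.42), Fosb (-0.73 to 0.40), Jun (-0.26 to 0.043), Egr1 (-1.30 to 0.021), Atf3 (-0.29 to 0.57) and Ier3 (-0.20 to 0.045). The lung minus liver value turned for Fos (-0.50 to 1.19), Fosb (-0.75 to 1.10), Egr1 (-0.97 to 0.84) and Dusp1 (-0.61 to 0.011). With the mouse block over those 12 libraries it turned for Fos (-0.23) and Ier2 (-0.20), and without mouse CS01 in both organs for Egr1 (0.011). Removal of the length trend turned Atf3 in the lung to -0.020. In the tissue comparison Junb was 0.18 in CS mice alone, and with 1 mouse left out Egr1 reached 0.057 and Ier2 ranged from -0.0020 to 0.32. The fits without mouse CS01 in both organs, with library totals alone and with joint scaling were chosen after seeing the data. The causes of these changes were not tested.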
